A study of Mus musculus with 3 samples.

Results

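Trimethylation of histone H3 at lysine 4 (H3K4me3), which marks promoters, was examined at 9 genes of inhibin, activin, anti-Müllerian hormone and bone morphogenetic protein (BMP) signalling in mouse granulosa cells around ovulation. The genes were Inha, Inhba, Inhbb, Fst, Amh, Amhr2, Grem1, Bmpr2 and Bmpr1b, 9 of the 21887 protein-coding genes on chromosomes 1 to 19, X and Y. Every deposited peak that overlapped a gene or the 5 kb on each side of it by at least 1 bp was taken, with positions in mm10. These windows held 23 of 22236 peaks before human chorionic gonadotropin (hCG), 16 of 23662 at 4 h after it and 11 of 20669 at 12 h. The covered bp of a gene is the length of its window under peaks, and is a length and not a signal height.

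Inhibins are dimers of the alpha subunit with a beta subunit and lower the release of follicle-stimulating hormone from the pituitary, whereas beta subunits paired with each other form activins, which follistatin binds and neutralises. Anti-Müllerian hormone is made by granulosa cells of growing follicles and acts through its own type II receptor to restrain follicle recruitment. BMPs signal through type I and type II receptors to the SMAD proteins, and secreted antagonists such as gremlin keep them from those receptors.

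The cells came from wild type C57BL/6 females at postnatal days 21 to 28. All mice were given 4 IU of eCG, a gonadotropin that drives follicle growth, and follicles were punctured before the 5 IU of hCG (0 h) or at 4 h and 12 h after it. There was 1 library per time, so no difference below has a replicate check or a test. The number of mice behind a library is not stated in the labels. The authors' lists covered 8.87, 10.1 and 8.93 Mb at 0 h, 4 h and 12 h, with narrowest peaks of 136, 139 and 152 bp. They give no height, and the depth of the libraries is unknown, so a place without a peak may still carry the mark below the calling limit. Per the labels, lane 4 held the 0 h and 4 h libraries and lane 5 that of 12 h, and the 12 h peak names alone lack the tag nolambda, so a difference at 12 h cannot be told apart from one of lane or calling. In a mixed sample, fewer cells with a mark and less mark per cell cannot be told apart either. Of 12 granulosa markers, 8, 9 and 9 had a peak at 0 h, 4 h and 12 h, and their summed covered bp was 11726, 8411 and 4837. Covered bp fell at Hsd17b1 (3146, 1304 and 349), Cyp19a1 (2045, 845 and 382) and Fshr (1707, 1495 and 675). Foxl2, Nr5a2, Gata4 and Inha were also lower at 12 h than at 0 h. Nr5a1 was steadier (1704, 1522 and 1531), and Cyp11a1 (0, 437 and 353) and Wt1 (0, 0 and 304) were covered after hCG alone. The sum thus does not describe each marker. Of 39 markers of theca, oocytes, immune, endothelial, stromal and smooth muscle, and erythroid cells, 7, 11 and 8 had one, and their summed covered bp was 4596, 7443 and 5136. Amh and Inha are on both the granulosa list and among the 9 genes. The theca markers Cyp17a1 and Insl3, the oocyte markers Zp1, Zp2 and Zp3 and the endothelial markers Pecam1 and Cdh5 had 0 covered bp throughout. The theca markers Ptch1 (903, 1670 and 1199 bp at 0 h, 4 h and 12 h), Gli1 (864, 789 and 1220 bp) and Aldh1a1 (721, 284 and 452 bp) were covered at each time. The endothelial markers Kdr (0, 347 and 164 bp), Erg (170 bp at 4 h alone) and Sox18 (302 bp at 0 h alone) were covered at some. The peaks at the macrophage marker Cd68 and at the granulosa marker Foxl2 lay outside these genes, and some of those at the oocyte marker Gdf9 overlapped its neighbour Uqcrq. The part of other cells in the results was not tested.

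The promoters of 7 of the 9 genes were found in the RefSeq promoter table (GRCm38.p6), which gives their strand and start. Those of Inhbb, Grem1 and Bmpr2 were rich in CpG dinucleotides, which cluster in the CpG islands of many promoters. They are shown because Inhbb had no peak at 4 h and Grem1 none at 12 h, while Bmpr2 had peaks at every time. Each sequence is the 250 bases before the start, 5′ to 3′ on the gene's strand, and capitals mark CpG. Inhbb lies on the minus strand at chr1:119422249-119422498, Grem1 on the minus strand at chr2:113758649-113758898 and Bmpr2 on the plus strand at chr1:59764029-59764278.
Inhbb: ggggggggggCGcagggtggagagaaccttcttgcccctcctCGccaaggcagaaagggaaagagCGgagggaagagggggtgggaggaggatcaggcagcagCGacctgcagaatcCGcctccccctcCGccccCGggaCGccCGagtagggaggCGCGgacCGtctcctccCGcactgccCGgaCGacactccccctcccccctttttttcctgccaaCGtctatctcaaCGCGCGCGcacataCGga
Grem1: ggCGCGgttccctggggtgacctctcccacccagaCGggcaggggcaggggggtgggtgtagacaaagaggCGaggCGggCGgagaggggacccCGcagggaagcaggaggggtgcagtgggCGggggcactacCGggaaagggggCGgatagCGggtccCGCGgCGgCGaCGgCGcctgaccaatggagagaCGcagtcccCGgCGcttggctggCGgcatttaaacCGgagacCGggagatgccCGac
Bmpr2: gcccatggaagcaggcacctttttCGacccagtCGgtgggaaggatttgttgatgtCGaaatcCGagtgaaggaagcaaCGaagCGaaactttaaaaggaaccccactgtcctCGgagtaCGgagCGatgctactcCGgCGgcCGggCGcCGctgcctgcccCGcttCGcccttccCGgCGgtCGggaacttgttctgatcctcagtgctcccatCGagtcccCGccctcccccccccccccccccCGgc

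The promoters of Inha and Amhr2 held few CpG, and are shown because both genes are known targets of the nuclear receptor SF-1 in gonadal cells. Capitals mark the letters AGGTCA, the core of the sequence SF-1 is known to bind. Inha lies on the plus strand at chr1:75507359-75507608 and Amhr2 on the plus strand at chr15:102445117-102445366.
Inha: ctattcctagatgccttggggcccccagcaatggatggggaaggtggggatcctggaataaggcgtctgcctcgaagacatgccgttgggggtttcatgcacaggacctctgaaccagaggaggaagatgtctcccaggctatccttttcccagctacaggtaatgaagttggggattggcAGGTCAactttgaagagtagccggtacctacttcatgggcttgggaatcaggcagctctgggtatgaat
Amhr2: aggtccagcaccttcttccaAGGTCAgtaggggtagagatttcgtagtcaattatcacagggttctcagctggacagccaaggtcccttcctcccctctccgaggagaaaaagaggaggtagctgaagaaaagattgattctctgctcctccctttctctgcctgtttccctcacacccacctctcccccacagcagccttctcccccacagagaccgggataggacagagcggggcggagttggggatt

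Of the 9 genes, 7 had a peak at 0 h, 7 at 4 h and 5 at 12 h, beside 56.3%, 58.3% and 56.2% of all protein-coding genes. Fst, Amhr2, Bmpr2 and Bmpr1b were marked at all 3 times. Inha and Grem1 were marked at 0 h and 4 h, Inhbb at 0 h and 12 h, and Inhba at 4 h alone, whereas Amh had no peak at any time. Among all genes, 53.0% had a peak at all 3 times, 39.3% at none and 7.65% at some times. The summed length of the peaks at the 9 genes was 9481 bp at 0 h, 6739 bp at 4 h and 5025 bp at 12 h, while the length covered in the whole libraries changed as given above and was longest at 4 h. The number of the 9 genes with a peak depended on narrow peaks. It was 6 at 0 h, 5 at 4 h and 5 at 12 h with peaks under the 25th percentile of width left out.

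**Figure D1:**
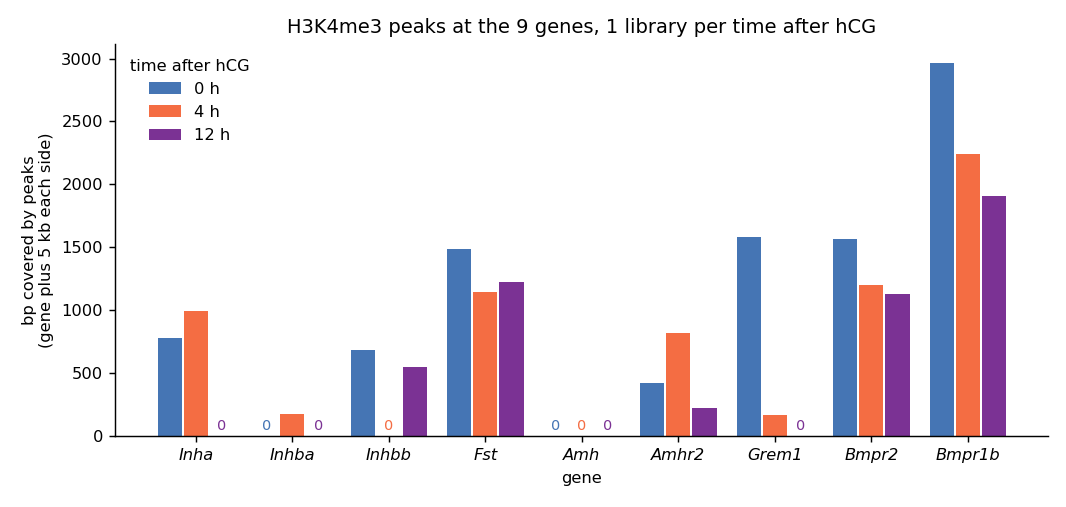
Bp covered by H3K4me3 peaks (y axis) within each gene and 5 kb on each side of it (x axis) at 0 h, 4 h and 12 h after hCG, with 1 library per time, so that the bars carry no error. Grem1 stands at 1585 bp at 0 h, 166 bp at 4 h and 0 bp at 12 h, whereas Fst, Bmpr2 and Bmpr1b lie between 1130 and 2968 bp at every time.

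Among the ligand genes, Inha, which encodes the inhibin alpha subunit, had 780 covered bp at 0 h, 995 bp at 4 h and 0 bp at 12 h. The gene lies on the plus strand of chromosome 1 from 75507077 to 75510366 and has its annotated start at 75507609, inside this span. At 0 h it had peaks of 417, 178 and 185 bp, the first of which began 190 bp after the start. At 4 h a peak of 658 bp ran from 77 bp before the start to 580 bp after it and shared 391 bp with the 0 h peaks, and it was the widest at this gene. Counted from the lower-coordinate end of the gene, this 4 h peak ran from 455 to 1112 bp. The first 0 h peak began 722 bp from that end, so both lay inside the gene. The other 4 h peaks, of 166 and 171 bp, lay more than 2 kb outside Inha within its neighbour Obsl1, whose span ends 590 bp away. Without these peaks of Obsl1 the covered bp at 4 h was 122 bp below that at 0 h, so the order of 0 h and 4 h depends on them. At 12 h the nearest peak lay 11457 bp from the gene.

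Inhbb, which encodes the inhibin and activin beta B subunit, had 681, 0 and 549 covered bp at 0 h, 4 h and 12 h. The gene spans positions 119415463 to 119422248 of chromosome 1 on the minus strand. The 0 h value came from peaks of 173, 250 and 258 bp that lay inside the gene between 1828 and 3699 bp after the start. The 12 h value came from 1 peak of 549 bp between 297 and 845 bp after the start, wider than or as wide as 73.4% of the peaks of its library. The peaks of these times therefore shared 0 bp, and the mark listed at 12 h lay closer to the start than the one listed at 0 h. At 4 h the nearest peak lay 81431 bp away.

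Inhba, the gene of the beta A subunit, spans positions 16004256 to 16031609 of chromosome 13 and had 1 peak in all, with 174 bp at 4 h. The peak lay inside the gene, 3179 to 3352 bp after the annotated start at 16011851. It was narrow, with 21.0% of the 4 h peaks as narrow or narrower, and Inhba had 0 bp when peaks under the 25th percentile of width of their library were left out. At this annotated start, which lies inside the gene span, no peak was listed within 2.5 kb at any time.

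Fst encodes follistatin and spans positions 114452262 to 114458989 of chromosome 13. It had 1484, 1140 and 1220 covered bp at 0 h, 4 h and 12 h. Most of this was 1 wide peak inside the gene near its higher-coordinate end, with 1329, 1140 and 1061 bp at 0 h, 4 h and 12 h, wider than or as wide as 99.3%, 96.4% and 96.0% of the peaks of each library. Its edge nearest the gene end lay 437, 409 and 494 bp inside that end. The 4 h and 12 h peaks shared 1055 bp, which is 86.5% of the covered bp at 12 h and 92.5% of that at 4 h. Narrow peaks outside the gene, of 155 bp at 0 h and 159 bp at 12 h, did not overlap peaks of other times. Of the covered bp at 4 h, 97.5% was also covered at 0 h, so the wide peak lay in the same place in all 3 libraries.

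Amh, the gene of anti-Müllerian hormone, spans positions 80805240 to 80807679 of chromosome 10 and had 0 covered bp at each time. The nearest peaks lay 5365, 5630 and 5666 bp from it at 0 h, 4 h and 12 h. They were inside Sf3a2, a splicing factor gene that ends 317 bp from Amh, and were 1103, 838 and 358 bp wide. A gene next to Amh was therefore marked in every library while no peak was listed at Amh or within 5 kb of it.

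Amhr2, the gene of the receptor for that hormone, had 421, 818 and 221 covered bp at 0 h, 4 h and 12 h. The gene lies on chromosome 15 from 102445002 to 102454640 and has its annotated start at 102445367, inside this span. Part of the 0 h and 4 h values, 144 and 330 bp, was a peak inside Prr13, a neighbour that begins 4529 bp away. The peaks near the start of Amhr2 covered 277, 488 and 221 bp at 0 h, 4 h and 12 h. They began 442, 427 and 309 bp after the start, and a second peak at 0 h and 4 h ended 977 and 1080 bp after it. The 0 h peaks were among the narrowest of that library, with 141 and 136 bp against a limit of 136 bp, so a ratio to 0 h depends on that limit.

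Grem1, which encodes the BMP antagonist gremlin 1 of growing follicles, spans positions 113748675 to 113758648 of chromosome 2 on the minus strand. It had peaks of 387, 1041 and 157 bp at 0 h, which ran from 59 to 1833 bp after the start and covered 1585 bp. At 4 h 1 peak of 166 bp remained listed between 31 and 196 bp after the start. At 12 h there was none, and the nearest peak lay 88644 bp away. The covered bp at 4 h was 9.55-fold lower than at 0 h (log2 ratio -3.26), a ratio that 0.025% of the 12004 genes with peaks at both times reached or passed. The 4 h peak was not far above the narrowest of its library, 139 bp, so the size of this ratio depends on that limit. It overlapped the end of the earlier marked stretch that lies nearest the start, with 138 of its 166 bp inside the 0 h peaks and the rest closer to the start.

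Bmpr2, the type II receptor gene through which BMPs and the oocyte factor GDF9 signal, spans positions 59764279 to 59878081 of chromosome 1. It had 5, 5 and 3 peaks with 1562, 1203 and 1130 covered bp at 0 h, 4 h and 12 h. They lay between 105 and 2588 bp after the start at 0 h, between 294 and 2539 bp at 4 h and between 282 and 2573 bp at 12 h, and no peak lay before the start. The marked stretch was thus 2484, 2246 and 2292 bp long at 0 h, 4 h and 12 h, with gaps at different places inside it. The widest peak was 641 bp at 0 h, 360 bp at 4 h and 692 bp at 12 h.

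Bmpr1b, a type I BMP receptor gene whose sheep counterpart is known for a fecundity mutation, spans positions 141837135 to 142169585 of chromosome 3 on the minus strand. It had the most covered bp of the 9 genes at each time, with 2968, 2243 and 1905 bp at 0 h, 4 h and 12 h. These bp fell into separate places, which were delimited after the values were seen. Around inner starts at 141931420 and 141931588 the covered bp was 1918, 1035 and 593 at 0 h, 4 h and 12 h. Near the far upstream end of the gene it was 1050, 1208 and 1114 bp. The shorter coverage of the gene at 4 h and 12 h was thus confined to the inner starts among the places marked at 0 h. The peak at the upstream end ended 529, 527 and 380 bp inside the gene. A further peak of 198 bp lay between these places at 12 h alone, and no peak lay within 2.5 kb of the annotated start at 141982264.

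**Figure D2:**
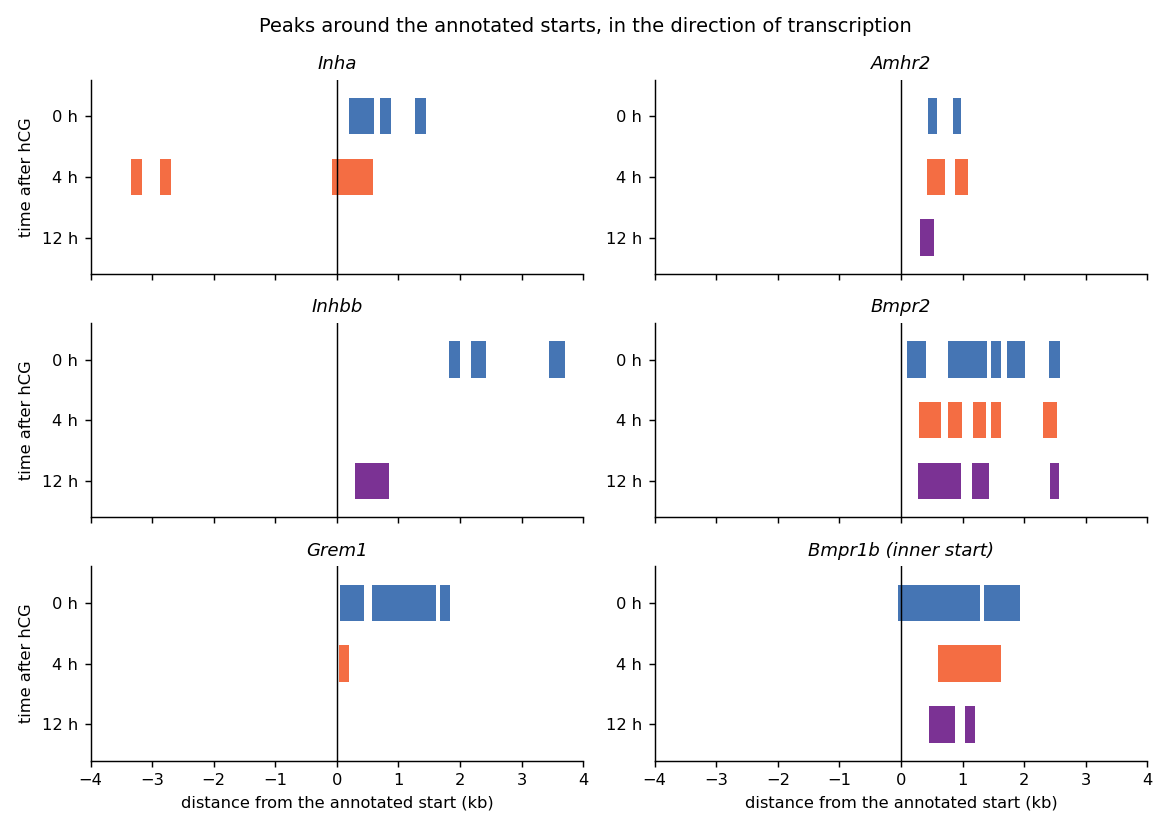
Peaks (bars) around the annotated start (vertical line, x axis in kb in the direction of transcription) of 6 genes, with rows for 0 h, 4 h and 12 h and 1 library per time. The peaks of Inhbb lie 1828 to 3699 bp after the start at 0 h and 297 to 845 bp after it at 12 h, and the 4 h peak of Grem1 ends 196 bp after it. The Amhr2 window's peak inside Prr13 and the upstream peaks of Bmpr1b are off the axis. The annotated starts of Inha, Amhr2 and Bmpr1b lie inside the gene spans.

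Between 4 h and 0 h the question is what differed once the ovulatory signal had acted. Covered bp was lower by 2-fold or more at Grem1 and Inhbb, 2 of the 8 members with a peak at either time, beside 5.06% of 13075 such genes. It was higher by 2-fold or more at Inhba, 1 of 8, beside 12.1%. The share of members that were higher was thus close to that of all genes, and the share that were lower was above it, though it rests on 2 genes. The fold for Inhba and Inhbb cannot be given, since each had 0 bp at one of the times. Amhr2 came next, with 818 bp at 4 h against 421 bp at 0 h (log2 ratio 0.96, which 7.59% of genes with peaks at both times reached or passed), or 488 bp at 4 h against 277 bp at 0 h without the peak in Prr13. The other members with peaks at both times had log2 ratios of 0.35 (Inha), -0.38 (Fst and Bmpr2) and -0.40 (Bmpr1b). Their median over 6 members was -0.38, and the median of all genes with peaks at both times was 0.12.

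Between 12 h and 4 h the question is what differed later in the interval, and luteinization itself was not measured. Covered bp was lower by 2-fold or more at Inha, Inhba, Amhr2 and Grem1, 4 of 8 members, beside 11.9% of 13085 genes. With peaks under the 25th percentile of width of their library left out, 2 members were lower, Inha and Amhr2, since the 4 h peaks of Inhba and Grem1 were narrower than that. Covered bp was higher at Inhbb, 1 of 8, beside 4.74%. Amhr2 had 221 bp at 12 h against 818 bp at 4 h (log2 ratio -1.89, which 0.786% of genes with peaks at both times reached or passed), or 221 bp at 12 h against 488 bp at 4 h without the peak in Prr13. Fst, Bmpr2 and Bmpr1b had log2 ratios of 0.10, -0.09 and -0.24. The median over 4 members with peaks at both times was -0.16, near that of all genes at -0.14.

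The values at 12 h and 0 h span the whole interval. Covered bp was lower by 2-fold or more at Inha and Grem1, 2 of 7 members with a peak at either time, beside 9.26% of 12885 genes. It was higher at 0 of 7, beside 9.08%. All 5 members with peaks at both times had less covered bp at 12 h, with log2 ratios of -0.28 at Fst, -0.31 at Inhbb, -0.47 at Bmpr2, -0.64 at Bmpr1b and -0.93 at Amhr2. Their median was -0.47, and that of all genes was -0.02. Without the peak in Prr13, Amhr2 had 221 bp at 12 h against 277 bp at 0 h. With peaks under the 25th percentile of width left out, Inhbb had 41 bp more and Amhr2 221 bp more at 12 h than at 0 h, and 1 member, Amhr2, was higher. Of all genes with peaks at both times, 28.5% had a ratio as low as that of Fst, 11.9% one as low as that of Bmpr1b and 6.01% one as low as that of Amhr2 with the peak in Prr13 included. The 3 comparisons share libraries and are not independent of each other.

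**Figure D3:**
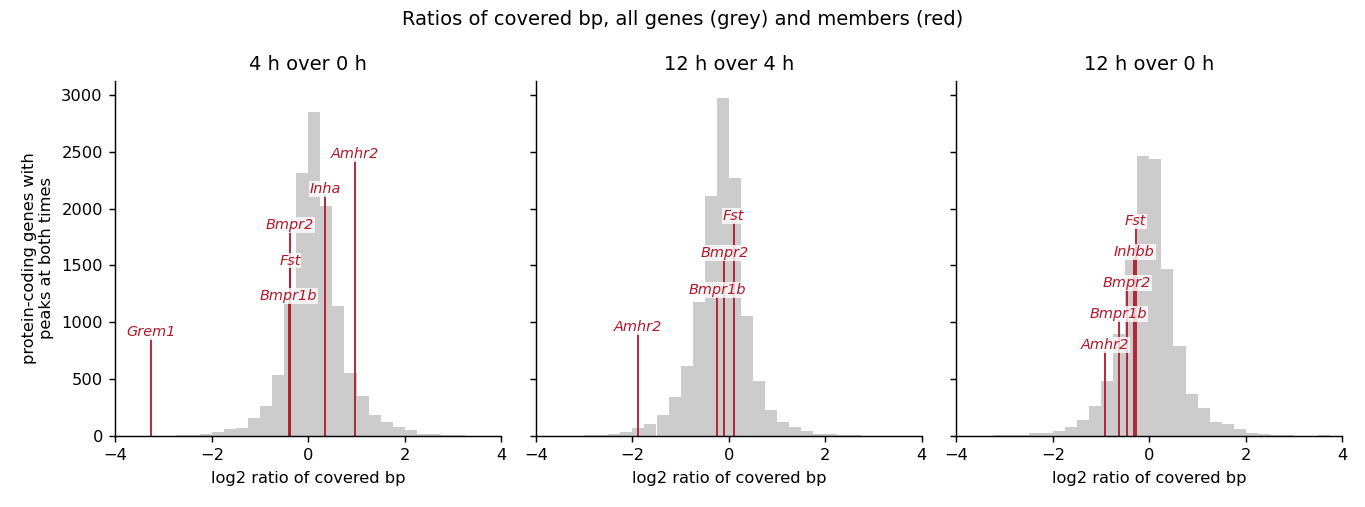
Log2 ratios of covered bp (x axis) of all protein-coding genes with peaks at both times (grey, number of genes on the y axis) in the 3 comparisons, with members that had peaks at both times as red lines whose heights carry no value. Grem1 lies at -3.26 for 4 h over 0 h, away from the bulk of genes, while Fst, Bmpr2 and Bmpr1b lie within it in each panel. Amhr2 lies at -1.89 for 12 h over 4 h with the peak inside Prr13 included. Without that peak it had 221 bp at 12 h against 488 bp at 4 h.

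The peaks of the members lay mostly after their starts. Of 9 annotated starts of 7 members, 7 had a peak within 2.5 kb at 0 h, 6 at 4 h and 5 at 12 h, and at all of these more bp were covered after the start than before it. This was so at 79.3%, 80.4% and 80.7% of all starts with a peak, so the placement is the common one in these libraries. Both inner starts of Bmpr1b share their peaks and are not independent. The exceptions to an empty upstream side were 49 bp before an inner start of Bmpr1b at 0 h and 77 bp before the start of Inha at 4 h. These stretches lie inside the gene spans and are not upstream of the genes.

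The marked members fell on both sides of the split in promoter CpG content. In the 250 bases before the start, Grem1 had 24 CpG, Bmpr2 22 and Inhbb 21, whereas Amhr2 had 5, Inha 4 and Inhba 3. The starts of Bmpr1b had 5, 5 and 1. None of these lies near the marked upstream end of Bmpr1b, where no CpG was counted. The annotated starts of Amhr2, Inha, Inhba and Bmpr1b lie inside the gene spans, so their counts need not be those of the promoters at the gene ends. The median over 21263 annotated starts was 10 CpG, with 17 at starts with a peak within 2.5 kb at any time and 3 at the others. Among starts with 20 CpG or more, 85.3%, 87.5% and 86.0% had such a peak at 0 h, 4 h and 12 h. Bmpr2 had one at each time, but Inhbb had none at 4 h and Grem1 none at 12 h. The shares at starts with 5 to 9 CpG were 42.4%, 44.4% and 41.7%. Amhr2 and the inner starts of Bmpr1b with 5 CpG belonged to this class and had a peak at each time. Among starts with 0 to 4 CpG the shares were 9.37%, 9.89% and 8.86%. Inha belonged to this class and had a peak at 0 h and 4 h. Inhba and the Bmpr1b start with 1 CpG belonged to it and had none within 2.5 kb.

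**Figure D4:**
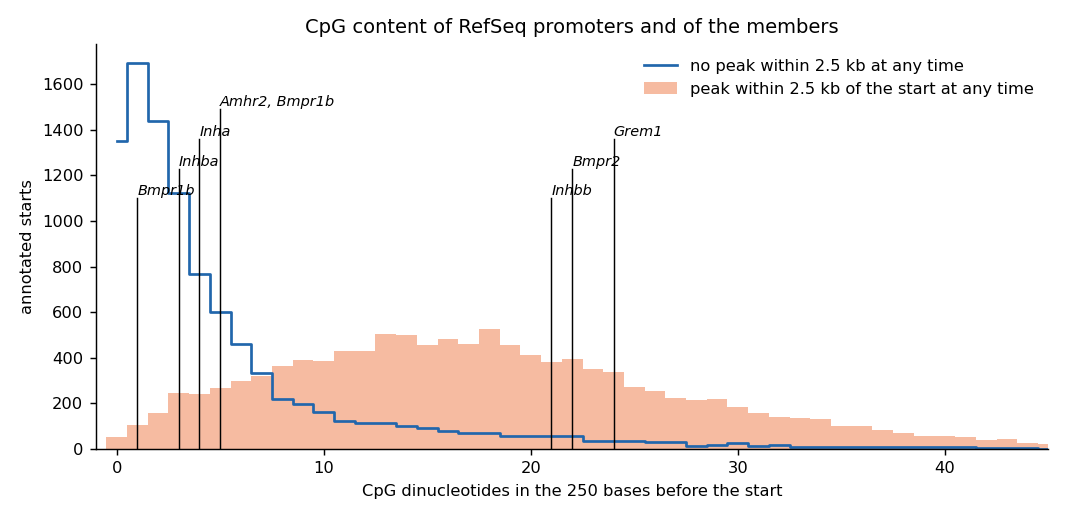
Number of annotated starts (y axis) by CpG count in the 250 bases before the start (x axis, drawn up to 45), for starts with a peak within 2.5 kb at any time (filled) and without one (line), with the 7 members that have an annotated start as vertical lines whose heights carry no value. Inhbb, Bmpr2 and Grem1 stand at 21 to 24 CpG, where most starts have a peak, and the starts of Inhba, Inha, Amhr2 and Bmpr1b at 1 to 5, where fewer do. The starts of these last genes lie inside the gene spans, and the marked upstream end of Bmpr1b has no start here.

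Motifs were searched on both strands of these 250 bases. The letters AGGTCA were found once each at Amhr2, Inha and Grem1 and at the inner start 141931588 of Bmpr1b, and at 12.8% of all starts. The match at Amhr2, 230 to 225 bases before the start, was part of CAAGGTCA, which 1.14% of starts held, and the match at Inha lay 69 to 64 bases before the start. The bases searched at Amhr2, Inha, Inhba and Bmpr1b lie inside the gene spans. The GC box GGGCGG was found 3 times at Grem1 and once each at Bmpr2, Inhbb and Amhr2, and at 42.6% of all starts. TATAAA was found once at Inhba and, on overlapping strands, 2 times at the start 141982264 of Bmpr1b, and at 11.6% of starts. The cyclic AMP response element TGACGTCA, its part TGACG, the AP-1 letters TGANTCA and the SMAD letters GTCTAGAC had no match at any member, and 1.92%, 20.2%, 6.13% and 0.183% of all starts held them. A match is a run of letters and no evidence of binding.

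The rest of the pathway was counted on 54 other genes of the TGF-beta superfamily. Of these, 39 had a peak at 0 h (72.2%), 40 at 4 h (74.1%) and 42 at 12 h (77.8%), beside 56.3%, 58.3% and 56.2% of all genes. For 4 h over 0 h, 9 of 42 with a peak at either time (21.4%) were higher by 2-fold or more and 4 (9.52%) lower, beside 12.1% and 5.06% of all genes. For 12 h over 4 h, 5 of 42 (11.9%) were higher and 6 (14.3%) lower, beside 4.74% and 11.9%. For 12 h over 0 h, 8 of 43 (18.6%) were higher and 5 (11.6%) lower, beside 9.08% and 9.26%. The median log2 ratios of this list were -0.02 for 4 h over 0 h, -0.15 for 12 h over 4 h and -0.07 for 12 h over 0 h, and those of all genes were 0.12, -0.14 and -0.02.

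Among the antagonists of that list, Nbl1, a DAN family antagonist, had 0, 810 and 335 bp at 0 h, 4 h and 12 h. Bmper, a secreted BMP-binding protein, had 362, 1200 and 1032 bp, and Chrd, which encodes the BMP antagonist chordin, 0, 139 and 352 bp. Overlap with the gene Thpo was also seen for the peaks at Chrd, so they need not belong to Chrd. Nog, the noggin gene, had 167 bp at 0 h alone. The pathway inhibitors Smad6 and Smad7 had 795, 281 and 202 bp and 598, 207 and 729 bp.

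Among ligands and receptors, Bmp2 had 1076, 642 and 345 bp at 0 h, 4 h and 12 h and Tgfb1 794, 1648 and 1162 bp. Bmp4 had 0, 435 and 206 bp and Bmp6 442, 494 and 152 bp. The activin type I receptor gene Acvr1c had 142, 500 and 483 bp. By contrast, the type II receptor gene Acvr2b had 1966, 1936 and 1707 bp, and the activin-regulated transducer gene Smad3 1359, 1652 and 887 bp, neither passing 2-fold in any comparison. Of the 9 peaks in the Acvr2b window over all times, 5 lay outside the gene. Peaks of this window also overlapped the gene Exog, so its covered bp is not that of Acvr2b alone.

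The ID genes, targets of BMP signalling that inhibit helix-loop-helix factors, differed among themselves. Id2 had 184, 1512 and 2005 bp at 0 h, 4 h and 12 h. Id3 had 1956, 1891 and 530 bp, and Id1 2162, 1868 and 1315 bp. Id4 had 303, 257 and 611 bp. Covered bp was thus highest at 12 h for Id2 and at 0 h for Id1 and Id3. Genes that also passed 2-fold in a comparison included Htra1, Gdf9, Smad9 and Bmp7, the last with 136 bp at 12 h alone, from the part of a peak that reached into its window. In all, 19 of 54 passed 2-fold in some comparison, 24 had peaks and did not, and 11 had no peak at any time. Of all genes, 39.3% had no peak at any time. The share of all genes past 2-fold in some comparison is not given here, so the 19 cannot be set beside it.

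**Figure D5:**
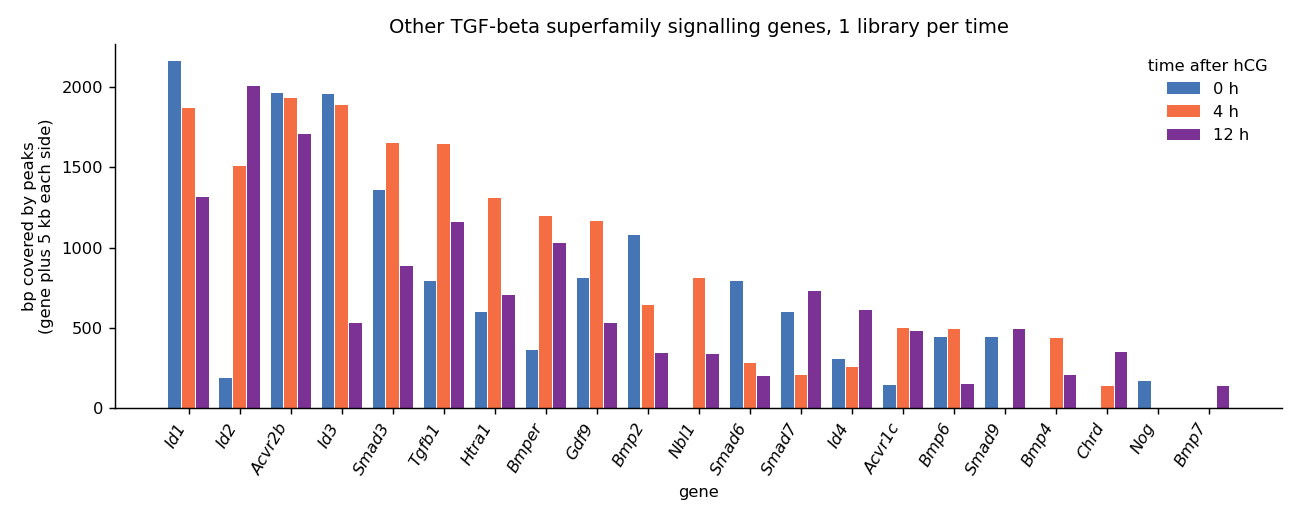
Bp covered by peaks (y axis) within other TGF-beta superfamily genes and 5 kb on each side of them (x axis) at 0 h, 4 h and 12 h, 1 library per time, with genes in order of their highest value. Id2 stands at 184, 1512 and 2005 bp and Id3 at 1956, 1891 and 530 bp, and Nbl1 is highest at 4 h.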

How the data were processed

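H3K4me3 chromatin immunoprecipitation libraries, amplified for 18 PCR cycles per the labels' protocols, were available for 3 times, with 1 library each. The authors deposited a peak list per library that gives the position and name of each peak and no score. The submitters' processing notes name CASAVA 1.8, Bowtie2 2.2.3, MACS2 2.0.9 and mm10. Neither the calling threshold nor any use of input DNA in calling is given in the sources used here.

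Covered bp was computed with Python 3.11.15, pandas 2.3.3 and numpy 2.4.6 for all 21887 protein-coding genes of RefSeq GRCm38.p6, and checked on simulated peaks. A change of 2-fold or more counts as higher or lower, 0 bp against a peak included. With 1 library a time no test was made, and most counts are set beside those of all genes. The members and lists were chosen with earlier results of these data known. The pathway genes named are those past 2-fold in any comparison, and the 3 with the most covered bp among the others, except 1 that is counted but not reported here. Peaks on other sequences (5, 3 and 6 at 0 h, 4 h and 12 h) were left out. Alternatives were other windows, peak filters, joined peaks, folds and centring.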

Additional observations from a re-analysis of the deposited data

How the results depend on the processing

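No paired analysis was possible because each time has 1 library. Over 9 alternatives, 67 of 72 counts of members with a peak, higher or lower stayed within 1.5 times. With peaks under the 25th percentile of width left out, 2 members were lower for 12 h over 4 h (4 without this filter) and 1 was higher for 12 h over 0 h (0 without it). Under the same filter 6, 5 and 5 members had a peak at 0 h, 4 h and 12 h (7, 7 and 5 without it). These counts stayed within 1.5 times, but those of 4 h and 12 h no longer differed. With equal numbers of the widest peaks, and also with a 1.5-fold limit, 2 members were higher for 4 h over 0 h in place of 1. With 1.5-fold, 4 were lower for 12 h over 0 h in place of 2. Of 162 differences in covered bp, 125 stayed within 1.5 times, 30 moved further and 7 changed sign. For Inha, 4 h minus 0 h was -122 bp with 1 kb windows and with the peaks nearest to the gene alone. With narrow peaks left out, 12 h minus 0 h was 41 bp for Inhbb and 221 bp for Amhr2, and 12 h minus 4 h was -79 bp for Fst. For Bmpr2, 12 h minus 4 h was 79 bp with equal numbers of the widest peaks and 46 bp with peaks within 1 kb joined. The causes were not tested, apart from Inha, where the peaks inside Obsl1 were left out, and Amhr2, whose 0 h peaks were all under the width limit. For Grem1, the signs of 4 h minus 0 h and of 12 h minus 0 h were kept under the 6 alternatives that change windows or peaks. The depth of the libraries is unknown, and peaks near the narrowest width limit the values of Inhba, Amhr2 and Grem1 most.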

Other observations

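The genes whose covered bp was most like that of each member past 2-fold were sought over the 3 times, by the Euclidean distance of log2(covered bp + 100). Over 3 points such likeness is a description alone. For Grem1 they were the thymosin gene Tmsb15l (1462, 203 and 0 bp at 0 h, 4 h and 12 h, distance 0.22), Rapgef4, a cyclic AMP-activated exchange factor gene (1004, 184 and 0 bp, 0.62), and the transcription factor gene Gata6 (1350, 324 and 0 bp, 0.71). For Inhbb they were Zfp771 (768, 0 and 655 bp), Syp (579, 0 and 676 bp) and Ror1 (600, 0 and 751 bp). For Amhr2 they were the sphingosine-1-phosphate receptor gene S1pr1 (464, 826 and 223 bp), Cenpt (451, 773 and 207 bp) and Pygo1 (420, 846 and 251 bp). For Inha, Obsl1 had the same values because both windows hold the same peaks, followed by Spin2c (767, 1070 and 0 bp) and Mad2l2 (753, 1202 and 0 bp). For Inhba they were Dock11, Phf24 and Gpr39, each with 1 time of 173 to 175 bp at 4 h.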
